A study of Mus musculus with 2 samples.

Results

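Collagens and the enzymes that modify them were examined in 3T3-L1 cells, mouse preadipocytes that can be induced to become fat cells, after knockdown of Phf21a. The set was chosen by name: every probe set annotated to a single gene whose symbol is that of a collagen chain (Col, a type number, a and a chain number), or that encodes a lysyl hydroxylase (Plod1 to Plod3), a prolyl 4-hydroxylase subunit (P4ha1 to P4ha3, P4hb), a lysyl oxidase (Lox, Loxl1 to Loxl4) or the procollagen C-endopeptidase enhancer Pcolce. This gave 102 probe sets of 54 genes, among 18193 genes with such a probe set. They comprised 11 fibrillar collagen genes, 8 basement membrane collagen genes (the type IV chains, Col15a1 and Col18a1), 23 other collagen genes and 12 enzyme genes. Loxl2 was not included, since its 2 probe sets are annotated to several genes.

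Preadipocytes received siRNA specific for Phf21a (BHC80, a histone-reading subunit of a corepressor complex with the demethylase LSD1), or the control siRNA siGL3. Adipogenic induction with insulin, dexamethasone and 3-isobutyl-1-methylxanthine followed after 24 h in both groups, and total RNA was taken a further 24 h later. Growth medium was the same for both (DMEM, 25 mM glucose, 10% FBS). Each group was measured on 1 array. With 1 array per group, no value has a replicate error, no test was run and no p-value is given, so "higher" and "lower" describe the array of Phf21a siRNA against that of control siRNA, and the number of arrays limits the precision.

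Collagens are built from 3 alpha chains wound into a triple helix. In the endoplasmic reticulum, prolyl hydroxylases stabilise the helix and lysyl hydroxylases prepare it for sugars and cross-links, while outside the cell the propeptides are cut off and lysyl oxidases join the molecules. Fibrillar collagens form the ropes of connective tissue, type IV collagen forms the sheet of the basement membrane that surrounds each fat cell, and preadipocytes are known to remodel the first towards the second as they mature.

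A signal here is the MAS5 intensity of a probe set in arbitrary units, and signals of different probe sets are not compared with each other. A gene was called detected when the higher of its signals reached 51.3, the median of all signals, and it is represented by its detected probe set of highest mean signal. The local spread given after ± is the scatter of log2 ratios (Phf21a siRNA over control siRNA) among the 1000 detected genes nearest in signal. True changes add to it, and it does not measure variation between cultures. Of all 11301 detected genes 3743 had a ratio beyond their local spread, as did 15 of the 37 detected members. A ratio beyond it is therefore common and does not by itself mark a gene as unusual. Phf21a itself had a signal of 306 on the Phf21a siRNA array and 768 on the control siRNA array (log2 ratio -1.33 ± 0.52).

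Both arrays had a trimmed mean of 500.003, so they were alike in scale through the processing. Median signals were 49.5 for Phf21a siRNA and 53.0 for control siRNA. Ratios of 3' to 5' control probe sets, which bear on RNA quality, were 0.816 for Gapdh, 1.22 for actin and 2.89 for the transferrin receptor with Phf21a siRNA, and 0.792, 1.15 and 2.35 for the same genes with control siRNA. Of 7 preadipocyte or fibroblast markers on the array 6 were detected, Cd34 being the exception. Among them Dlk1, which marks undifferentiated preadipocytes, had 5940 with Phf21a siRNA and 12290 with control siRNA (-1.05 ± 0.32). Pdgfrb had 3743 with Phf21a siRNA and 2092 with control siRNA (0.84 ± 0.42). The 2 detected probe sets of Dlk1 were at -1.78 and -1.05, whereas those of Pdgfrb differed, at 0.13 and 0.84. The remaining detected markers of this list lay within their local spread. They were Pdgfra (-0.16 ± 0.45), Thy1 (-0.30 ± 0.47), S100a4 (0.11 ± 0.29) and Vim (0.13 ± 0.29). The probe sets of Pdgfra ranged from -0.57 to -0.16. The early adipocyte gene Fabp4 had signals of 5849 with Phf21a siRNA and 3502 with control siRNA, and Lpl had 3253 with Phf21a siRNA and 3614 with control siRNA. Of the other adipocyte markers Cd36 lay near the detection limit, and Adipoq and Cidec were undetected. The endothelial markers were undetected in 5 of 5 cases.

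Summed marker signals of some other cell types differed between the arrays. These sums add signals of different probe sets and have no local spread. Summed signals of the 7 leukocyte markers were 688 with Phf21a siRNA and 397 with control siRNA, most of it from Csf1r (452 with Phf21a siRNA and 200 with control siRNA). The 3 detected probe sets of Csf1r ranged from 0.18 to 1.18. Of the 4 detected leukocyte markers 3 lay above 0. Besides Csf1r these were Cd68 (119 with Phf21a siRNA and 64.0 with control siRNA, 0.89 ± 0.71) and Lyz2 (71.9 with Phf21a siRNA and 53.6 with control siRNA, 0.42 ± 0.70), both dim. Laptm5 went the other way (22.3 with Phf21a siRNA and 66.4 with control siRNA), and the defining genes Ptprc, Tyrobp and Cd52 were undetected. Summed signals of the 4 myofibroblast or muscle markers were 14043 with Phf21a siRNA and 10929 with control siRNA, with 3 of 4 detected and Myod1 undetected. Most of this came from Acta2 (13330 with Phf21a siRNA and 10504 with control siRNA, 0.34 ± 0.29). Tagln was higher (1.04 ± 0.54), while Des was at -0.29 ± 0.71. The 5 epithelial markers summed to 164 with Phf21a siRNA and 257 with control siRNA. Only Epcam (-0.88 ± 0.71) and Krt8 (-0.12 ± 0.72) were detected among them. The 5 chondrocyte markers summed to 798 with Phf21a siRNA and 620 with control siRNA. Only Sox9 was detected among them, and its ratio lay within the local spread (0.44 ± 0.51). Fewer cells of a type and less RNA per cell cannot be told apart in such bulk samples, and the part of any of these markers in the collagen results was not tested.

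Of the 54 genes 37 were detected, and among them lower values outnumbered higher ones. At least 1.5-fold higher were 5 genes (13.5%) and lower 8 (21.6%), against 15.1% higher and 13.9% lower of all 11301 detected genes. The share of higher genes was thus near that of all genes. Col17a1, Col9a1 and Col22a1 passed the detection limit only on the array where they were higher. With both signals at or over the limit, 4 of 31 members were higher and 6 lower, against 13.5% and 11% of the 10335 genes so measured. The median log2 ratio was -0.19, against 0.03 over all detected genes. Below 0 lay 23 of the 37 (62.2%), against 47.8% of all detected genes. At least 2-fold differences numbered 3 in each direction, where all detected genes had 5.66% higher and 5.44% lower.

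The detected members span dim and bright signals. Of the 26 whose higher signal reached 461, the 75th percentile of all signals, 3 were at least 1.5-fold higher and 6 lower, against 12.9% and 10.1% of the 7134 genes of that brightness. Their median was -0.19, against 0.05 for those genes. The 11 dimmer members had 2 higher and 2 lower, against 18.9% and 20.4% of dimmer detected genes, so 6 of the 8 lower calls came from the brighter genes. In 6 detected members 1 of the signals lay under the detection limit.

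**Figure D1:**
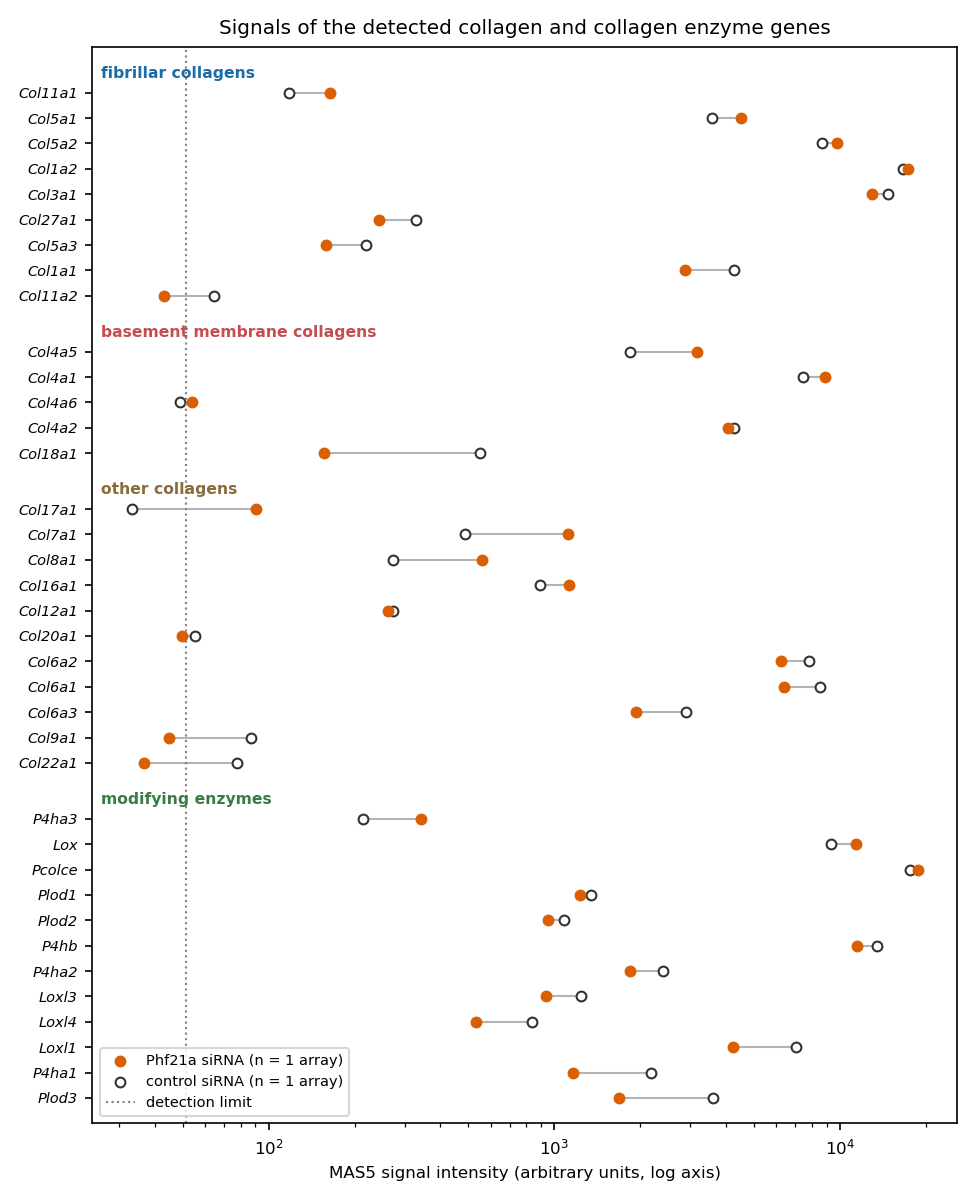
MAS5 signal (arbitrary units, log axis) of the 37 detected genes, ordered within each class by log2 ratio; filled points are the Phf21a siRNA array and open points the control siRNA array (n = 1 each), and the dotted line is the detection limit of 51.3. The fibrillar chains Col1a2, Col3a1 and Col5a2 lie close on both arrays, whereas Col18a1, Plod3 and P4ha1 lie to the left on the Phf21a siRNA array and Col7a1 and Col8a1 to the right.

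None of the 9 detected fibrillar collagens was past 1.5-fold in either direction, where 15.1% of all detected genes were higher and 13.9% lower. These shares were not matched for signal. The median local spread was 0.39 for the 9 genes and 0.52 for all detected genes. Of the 9, 5 were brighter genes, and among all brighter genes 12.9% were higher and 10.1% lower. With so few genes, the absence of calls does not show unusual stability. The median log2 ratio of the 9 fibrillar collagens was -0.19, and -0.43 without probe sets ending in _x_at, _s_at or _a_at. Col1a1 and Col11a2 lay just inside 1.5-fold. Col1a2, the alpha2 chain of type I collagen, had signals of 17309 with Phf21a siRNA and 16607 with control siRNA (log2 ratio 0.06 ± 0.29). Col3a1, the chain of type III collagen found with type I in soft tissue, had 12972 with Phf21a siRNA and 14801 with control siRNA (-0.19 ± 0.29). Both ratios lay within the local spread.

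The partner chain of type I collagen stood apart from Col1a2. Col1a1, which contributes the alpha1 chains of the same trimer, had a signal of 2867 with Phf21a siRNA and 4274 with control siRNA, a log2 ratio of -0.58 ± 0.39 just short of 1.5-fold. Its second probe set gave 697 with Phf21a siRNA and 962 with control siRNA (-0.46), in the same direction. It was the only 1 of the 9 fibrillar genes whose ratio exceeded its local spread. The 3 probe sets of Col1a2 ranged from -0.11 to 0.06.

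Type V collagen, which sits inside type I fibrils and limits their width, had chains on both sides of 0. Col5a1 had signals of 4521 with Phf21a siRNA and 3583 with control siRNA (0.34 ± 0.37), and Col5a2 had 9818 with Phf21a siRNA and 8701 with control siRNA (0.17 ± 0.31). Col5a3, a chain of restricted expression, had 159 with Phf21a siRNA and 219 with control siRNA (-0.46 ± 0.61). None of the 3 exceeded its local spread. Other probe sets of these genes disagreed with the ones given: those of Col5a1 at -0.12 and -0.14, and that of Col5a2 at -0.58 (731 with Phf21a siRNA and 1092 with control siRNA). Col5a1 and Col5a2 were below 0 under scaling by the poly-A controls, and Col5a2 also under scaling by the hybridisation controls (-0.054) and with averaged probe sets (-0.20).

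The dimmer fibrillar chains followed no single direction. Col11a1 and Col11a2 encode chains of type XI collagen, the cartilage counterpart of type V. Col11a1 had signals of 164 with Phf21a siRNA and 118 with control siRNA (0.48 ± 0.67), and Col11a2 had 43.2 with Phf21a siRNA and 64.6 with control siRNA (-0.58 ± 0.84), the Phf21a siRNA signal being under the detection limit. Col27a1, a long fibrillar chain, had 243 with Phf21a siRNA and 329 with control siRNA (-0.43 ± 0.57). Col2a1, the major chain of cartilage, was undetected at 6.21 with Phf21a siRNA and 4.19 with control siRNA, and Col24a1 was undetected as well.

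A second probe set of Col3a1 gave a different size, with signals of 631 for Phf21a siRNA and 1158 for control siRNA (-0.88). Of the 20 members with several detected probe sets, 14 had all of them on one side of 0 and 6 on both sides. The 6 were Col1a2, Col5a1, Col5a2, Lox, Pcolce and Plod1, whose chosen probe sets were between -0.13 and 0.34. Among the 18 detected fibrillar probe sets 0 were at least 1.5-fold higher and 1 lower, against 14.2% and 16.3% of all detected probe sets. Those shares were not matched for signal either.

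Of the 5 detected basement membrane collagens 1 was at least 1.5-fold lower, 1 was higher and 3 lay between. Of all detected genes 13.9% were lower and 15.1% higher. Col18a1 encodes the multiplexin whose C-terminal fragment is endostatin. It had a signal of 157 on the Phf21a siRNA array and 552 on the control siRNA array, a log2 ratio of -1.81 ± 0.56, and its second probe set gave 162 with Phf21a siRNA and 332 with control siRNA (-1.04), so both probe sets were more than 2-fold lower. No other member was as low.

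None of the type IV chains was 1.5-fold lower. Col4a5, a chain of the alpha3-alpha4-alpha5 and alpha5-alpha5-alpha6 networks, had 3171 with Phf21a siRNA and 1843 with control siRNA (1.72-fold higher, 0.78 ± 0.42), and its second probe set gave 1148 with Phf21a siRNA and 805 with control siRNA (0.51). Col4a1 had 8893 with Phf21a siRNA and 7453 with control siRNA (0.25 ± 0.32, second probe set 0.27), and Col4a2 had 4070 with Phf21a siRNA and 4258 with control siRNA (-0.07 ± 0.37). These 2 genes encode the chains of the common alpha1-alpha1-alpha2 network and lie head to head in the genome. Both ratios were within the local spread, and Col4a1 was below 0 under scaling by the poly-A controls.

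Col4a6 had signals of 53.9 with Phf21a siRNA and 49.1 with control siRNA (0.13 ± 0.88), at the detection limit. Its neighbour Col4a5, which also starts head to head with it, was thus clearly detected while Col4a6 was not separable from the limit. The kidney chains Col4a3 and Col4a4 were undetected, at no more than 12.3 and 17.9. Col15a1, the other multiplexin, was undetected too, at 8.16 with Phf21a siRNA and 39.2 with control siRNA. The 5 detected genes of the class ranged from -1.81 to 0.78, and their median of 0.13 was the value of Col4a6. The 4 type IV chains alone had a median of 0.19.

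Sequences just upstream of the annotated gene starts are given for the members of both directions, so that the regions can be compared. They were taken from RefSeq (GRCm38.p6), which had a promoter window for 41 of the 54 genes, and cover only bases before the gene begins, read 5' to 3' on the gene's strand. Capitals mark matches, on either strand, to the GC box GGGCGG (the letters bound by Sp1), to CCAAT and to the TATA box letters TATAAA. Of 32851 windows of 250 bases before a start, 32.7% held the GC box, 33.8% CCAAT and 12.4% TATAAA. Of the 44 such windows of member genes, 28 held the GC box, 15 CCAAT and 6 TATAAA, and the difference was not tested. Printed stretches under 250 bases were cut at the annotated gene start, so these shares do not apply to them directly. The first set shows Col18a1, the lowest member, and the X-linked pair Col4a5 and Col4a6.
Col18a1, chr10:77166531-77166780, minus strand: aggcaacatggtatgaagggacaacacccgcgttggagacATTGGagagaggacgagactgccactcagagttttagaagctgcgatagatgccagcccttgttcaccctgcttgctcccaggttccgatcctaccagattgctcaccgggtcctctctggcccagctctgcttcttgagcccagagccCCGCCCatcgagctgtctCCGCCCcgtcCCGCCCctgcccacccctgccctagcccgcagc
Col4a5, chrX:141475169-141475369, plus strand: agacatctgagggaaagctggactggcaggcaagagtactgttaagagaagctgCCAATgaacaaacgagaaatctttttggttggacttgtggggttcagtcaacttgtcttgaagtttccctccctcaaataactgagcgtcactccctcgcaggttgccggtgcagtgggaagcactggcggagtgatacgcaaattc
Col4a6, chrX:141474096-141474326, minus strand: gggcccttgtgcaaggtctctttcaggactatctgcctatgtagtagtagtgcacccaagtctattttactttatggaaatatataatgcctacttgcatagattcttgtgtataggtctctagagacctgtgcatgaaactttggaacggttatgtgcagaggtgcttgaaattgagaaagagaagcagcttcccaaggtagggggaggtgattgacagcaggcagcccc
In the Col18a1 window of 250 bases there were 3 GC boxes and 1 CCAAT. The Col4a5 stretch of 201 bases held 1 CCAAT and the Col4a6 stretch of 231 bases none of these letters. GC content was 62.0%, 49.8% and 45.5% for Col18a1, Col4a5 and Col4a6. Such a match is a description of letters, and binding was not measured.

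**Figure D2:**
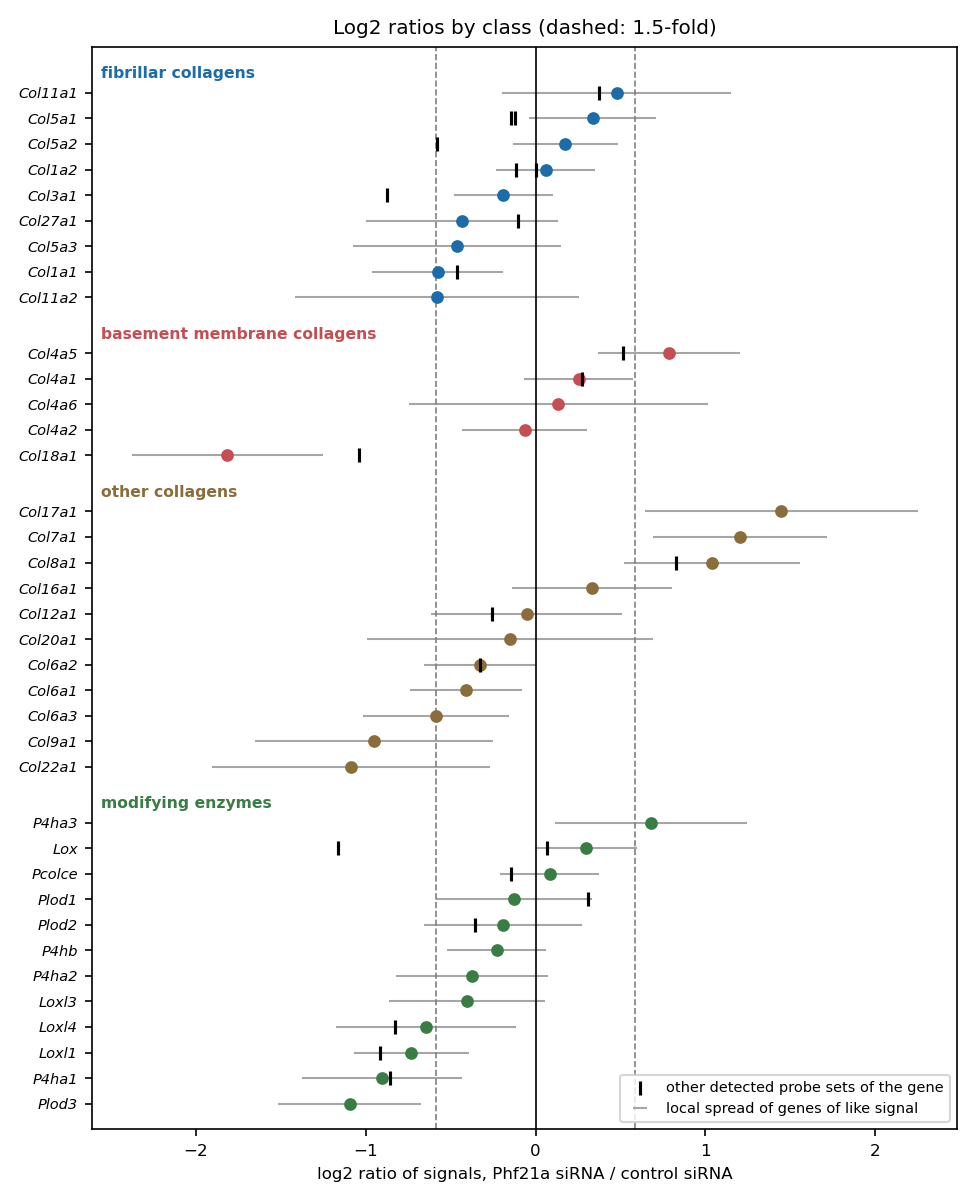
Log2 ratio of signals, Phf21a siRNA over control siRNA, for the 37 detected genes in 4 classes; coloured points are the probe set that represents the gene, black ticks its other detected probe sets, bars the local spread among 1000 genes of like signal, and dashed lines 1.5-fold. No fibrillar point lies past a dashed line, while Plod3, P4ha1, Loxl1 and Loxl4 lie beyond it on the lower side and Col7a1, Col8a1 and Col17a1 on the higher side.

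Of the 5 higher members 3 were other collagens, or 2 of 4 when both signals had to reach the detection limit. Col7a1, the chain of the anchoring fibrils that fasten basement membranes to the tissue below, had a signal of 1119 with Phf21a siRNA and 486 with control siRNA (2.30-fold higher, 1.20 ± 0.51). Col8a1, a short-chain collagen of vessel walls and the eye, had 559 with Phf21a siRNA and 272 with control siRNA (2.05-fold higher, 1.04 ± 0.52), and its second detected probe set gave 290 with Phf21a siRNA and 164 with control siRNA (0.82). Col17a1, a transmembrane collagen of hemidesmosomes in epithelia, had 90.4 with Phf21a siRNA and 33.2 with control siRNA (1.45 ± 0.80). The control signal of Col17a1 lay under the detection limit, and its log2 ratio was 0.82 with that signal raised to the limit. The ratios of these 3 genes were above 0 in all scalings tried.

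Upstream sequences are given for Col7a1 and Col8a1, which were detected on both arrays.
Col7a1, chr9:108953336-108953585, plus strand: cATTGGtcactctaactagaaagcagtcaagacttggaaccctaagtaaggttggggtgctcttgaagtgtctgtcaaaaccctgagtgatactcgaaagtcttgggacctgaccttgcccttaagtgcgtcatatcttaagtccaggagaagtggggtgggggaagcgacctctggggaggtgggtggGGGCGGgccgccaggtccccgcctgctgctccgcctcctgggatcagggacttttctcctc
Col8a1, chr16:57754738-57754987, minus strand: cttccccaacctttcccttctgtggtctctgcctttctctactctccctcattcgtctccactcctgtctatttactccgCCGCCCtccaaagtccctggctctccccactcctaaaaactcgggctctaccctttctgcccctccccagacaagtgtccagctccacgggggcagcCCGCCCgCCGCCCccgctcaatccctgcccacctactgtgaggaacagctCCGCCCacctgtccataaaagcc
The Col7a1 window held 1 GC box and 1 CCAAT, and the Col8a1 window held 4 GC boxes and no CCAAT. Neither held TATAAA. GC content was 56.4% for Col7a1 and 60.8% for Col8a1.

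Type VI collagen, a beaded filament that links cells to the matrix and is abundant around fat cells, was lower in its 3 main chains. Col6a1 had a signal of 6408 on the Phf21a siRNA array and 8508 on the control siRNA array (-0.41 ± 0.33). Col6a2 had 6251 with Phf21a siRNA and 7829 with control siRNA (-0.32 ± 0.33), with its second probe set also at -0.33. Col6a3 had 1930 with Phf21a siRNA and 2896 with control siRNA (-0.59 ± 0.43) and was just past 1.5-fold lower, at the edge of what was counted. Col6a1 and Col6a3 exceeded their local spread narrowly, and Col6a2 did not. The further type VI chains Col6a4 and Col6a5 were undetected.

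Collagens that decorate fibrils or occur in special tissues were mostly dim. Col16a1 had 1124 with Phf21a siRNA and 893 with control siRNA (0.33 ± 0.47), and Col12a1, which binds to type I fibrils, had 263 with Phf21a siRNA and 273 with control siRNA (-0.05 ± 0.56). Col9a1, a cartilage chain, had 44.9 with Phf21a siRNA and 86.9 with control siRNA (-0.95 ± 0.70). Col22a1, a collagen of tissue junctions, had 36.6 with Phf21a siRNA and 77.7 with control siRNA (-1.09 ± 0.82). For Col9a1 and Col22a1 the Phf21a siRNA signal was under the detection limit, and raising it to the limit gave -0.76 and -0.60. Col20a1 lay at the limit with 49.9 with Phf21a siRNA and 55.4 with control siRNA (-0.15 ± 0.84).

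The 11 detected genes of this class had a median log2 ratio of -0.15, with 3 at least 1.5-fold higher and 3 lower, where all detected genes had 15.1% and 13.9%. With both signals at or over the detection limit, 2 of 7 were higher and 1 lower. Its other 12 genes were undetected. Besides Col6a4 and Col6a5 these were Col8a2, Col9a2, Col9a3, Col10a1, Col13a1, Col14a1, Col19a1, Col23a1, Col25a1 and Col26a1. Over all 17 undetected members the highest signal of a gene ranged from 1.97 for Col9a2 to 45.7 for Col6a4. At such signals a difference between the arrays was not detectable.

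The modifying enzymes had the lowest class median as reported, though without probe sets ending in _x_at, _s_at or _a_at the fibrillar median was lower (-0.39 for the enzymes and -0.43 for fibrillar collagens). All 12 genes were detected, 9 lay below 0 (75%, against 47.8% of all detected genes), and the median log2 ratio was -0.30. At least 1.5-fold lower were 4 of the 12 (33.3%), and 1 was higher, against 13.9% and 15.1% of all detected genes. Of 20 detected probe sets of these enzymes 8 were at least 1.5-fold lower and 1 higher, against 16.3% and 14.2% of all detected probe sets, although probe sets of a gene are not separate observations.

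Lysyl hydroxylases differed among themselves. Plod3, which hydroxylates lysine and also adds sugars to it, had a signal of 1690 with Phf21a siRNA and 3612 with control siRNA, 2.14-fold lower (-1.10 ± 0.42). Plod1 had 1233 with Phf21a siRNA and 1346 with control siRNA (-0.13 ± 0.46), and a dim second probe set gave 0.31. Plod2, which modifies the telopeptide lysines used in stable cross-links, had 952 with Phf21a siRNA and 1086 with control siRNA (-0.19 ± 0.46, second probe set -0.36). Only Plod3 among these 3 exceeded its local spread, and it has a single probe set.

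Prolyl 4-hydroxylase is made of alpha subunits, which carry the catalytic site, and the beta subunit P4hb, protein disulfide isomerase. P4ha1, the main alpha subunit, had 1167 with Phf21a siRNA and 2183 with control siRNA, 1.87-fold lower (-0.90 ± 0.47), and its second probe set gave 852 with Phf21a siRNA and 1543 with control siRNA (-0.86). P4ha2 had 1850 with Phf21a siRNA and 2401 with control siRNA (-0.38 ± 0.45), and P4hb had 11498 with Phf21a siRNA and 13475 with control siRNA (-0.23 ± 0.29). P4ha3 had 343 with Phf21a siRNA and 215 with control siRNA (1.60-fold higher, 0.68 ± 0.57), though it was at -0.047 when scaled to the poly-A controls. The alpha subunits thus did not share 1 direction.

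The stretch of 151 bases upstream of P4ha1 is given as that of the enzyme whose probe sets were closest to each other among those lower.
P4ha1, chr10:59323046-59323196, plus strand: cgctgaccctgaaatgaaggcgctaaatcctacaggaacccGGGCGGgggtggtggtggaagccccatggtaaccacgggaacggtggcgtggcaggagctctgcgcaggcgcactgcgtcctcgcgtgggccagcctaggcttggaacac
It held 1 GC box and neither CCAAT nor TATAAA, with a GC content of 65.6%.

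The lysyl oxidase family was split. Lox, the founding member, which oxidises lysines of collagen and elastin, had 11448 with Phf21a siRNA and 9318 with control siRNA (0.30 ± 0.30). Its second probe set was at 0.06 (9562 with Phf21a siRNA and 9145 with control siRNA), and a dim further one at -1.17 (28.6 with Phf21a siRNA and 64.1 with control siRNA), where the Phf21a siRNA signal was under the detection limit. Lox lay within its local spread, and it was below 0 when its probe sets were averaged or under scaling by the poly-A controls.

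Loxl1, a relative best known for elastic fibres, had 4221 with Phf21a siRNA and 7006 with control siRNA, 1.66-fold lower (-0.73 ± 0.34), and its second probe set gave 129 with Phf21a siRNA and 244 with control siRNA (-0.92). Loxl4 had 534 with Phf21a siRNA and 837 with control siRNA (-0.65 ± 0.53, second probe set -0.82). Loxl3 had 937 with Phf21a siRNA and 1240 with control siRNA (-0.40 ± 0.46). Loxl1 and Loxl4 were lower by at least 1.5-fold on each of their 2 probe sets. Pcolce, which speeds removal of the C-propeptide of fibrillar procollagens, had 18757 with Phf21a siRNA and 17698 with control siRNA (0.08 ± 0.29, second probe set -0.15) and was within its local spread.

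**Figure D3:**
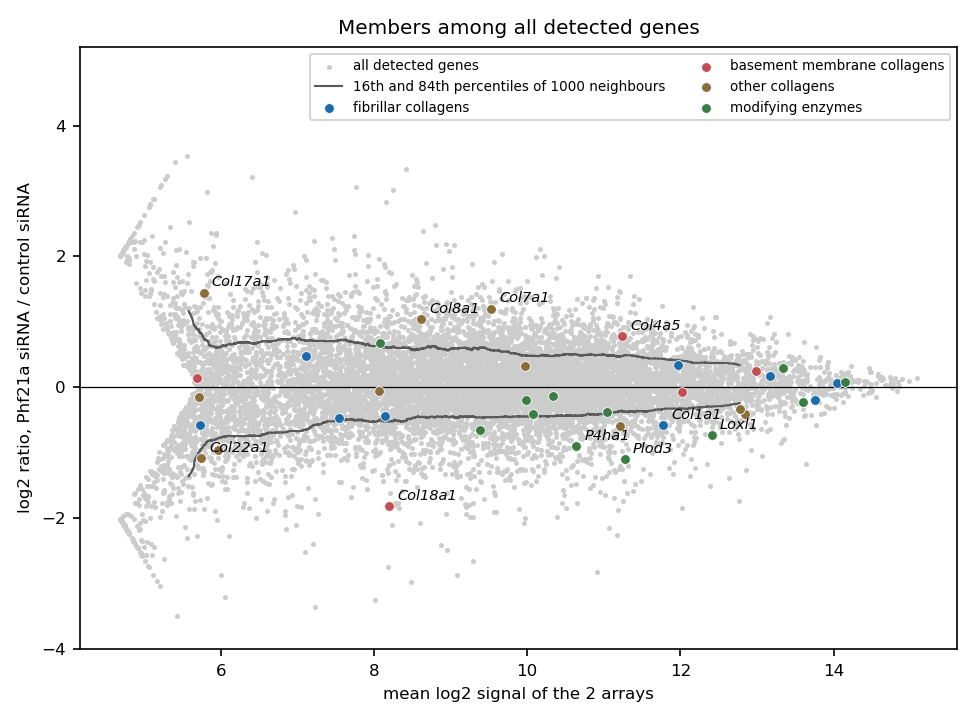
Log2 ratio, Phf21a siRNA over control siRNA, against the mean log2 signal of the 2 arrays for all 11301 detected genes (grey) and the members by class (colours); the lines are the running 16th and 84th percentiles over 1000 neighbouring genes. Col18a1, Plod3, P4ha1 and Loxl1 lie below the lower line and Col7a1, Col8a1 and Col4a5 above the upper one, while most fibrillar points lie between the lines.

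Other genes of collagen folding, processing, turnover and binding were read from a separate list of 48 symbols, older names included, of which 38 had a probe set and 30 were detected. At least 1.5-fold higher were 3 of the 30 and lower were 6, against 15.1% and 13.9% of all detected genes, with a median log2 ratio of -0.08 (0.03 over all detected genes). Serpinh1, the chaperone HSP47 that binds folded procollagen in the endoplasmic reticulum, had a signal of 4800 with Phf21a siRNA and 11558 with control siRNA, 2.41-fold lower (-1.27 ± 0.33). Its 2 probe sets were at -1.27 and -1.11.

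The other named genes of that list fell on both sides. Mmp14, a membrane-bound collagenase, had 1517 with Phf21a siRNA and 3055 with control siRNA (-1.01 ± 0.45, 3 probe sets from -1.18 to -0.75). Pcolce2, a relative of Pcolce, had 1129 with Phf21a siRNA and 1978 with control siRNA (-0.81 ± 0.47), and Itgb1, the beta chain of the collagen-binding integrins, had 2939 with Phf21a siRNA and 4869 with control siRNA (-0.73 ± 0.38). These 3 were lower beyond their local spread. Tll1, a tolloid-like protease that cuts procollagen propeptides, had 632 with Phf21a siRNA and 255 with control siRNA (1.31 ± 0.52). Ctsk, the collagen-degrading cathepsin K, had 1000 with Phf21a siRNA and 431 with control siRNA (1.21 ± 0.52).

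Among the remaining list genes past 1.5-fold, Bmp1, the main procollagen C-proteinase, was at 0.61 ± 0.47. P3h1, a prolyl 3-hydroxylase, was at -0.65 ± 0.53. The dim transglutaminase Tgm2 was at -0.90 ± 0.76 with probe sets on both sides of 0. These 3 were named after their values were seen. The other folding partners Crtap (-0.09) and Ppib (-0.06), which act with P3h1, differed by less than their local spread.

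Across the processing alternatives the order of the classes was partly kept. Relative to the median of all genes, the enzyme median lay between -0.43 and -0.30 and the basement membrane median between 0.04 and 0.20 in every alternative. The basement membrane class had only 5 detected genes, with log2 ratios from -1.81 to 0.78. Its median as reported was the value of Col4a6, a gene at the detection limit, so it does not describe a shared direction. The fibrillar median ranged from -0.44 to 0.01 and that of other collagens from -0.27 to 0.00. Scaling to the poly-A controls put the median of all genes at -0.71 and scaling to the hybridisation controls at -0.21, so a direction against 0 is a direction relative to the bulk of genes. Differences between the classes were not tested.

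**Figure D4:**
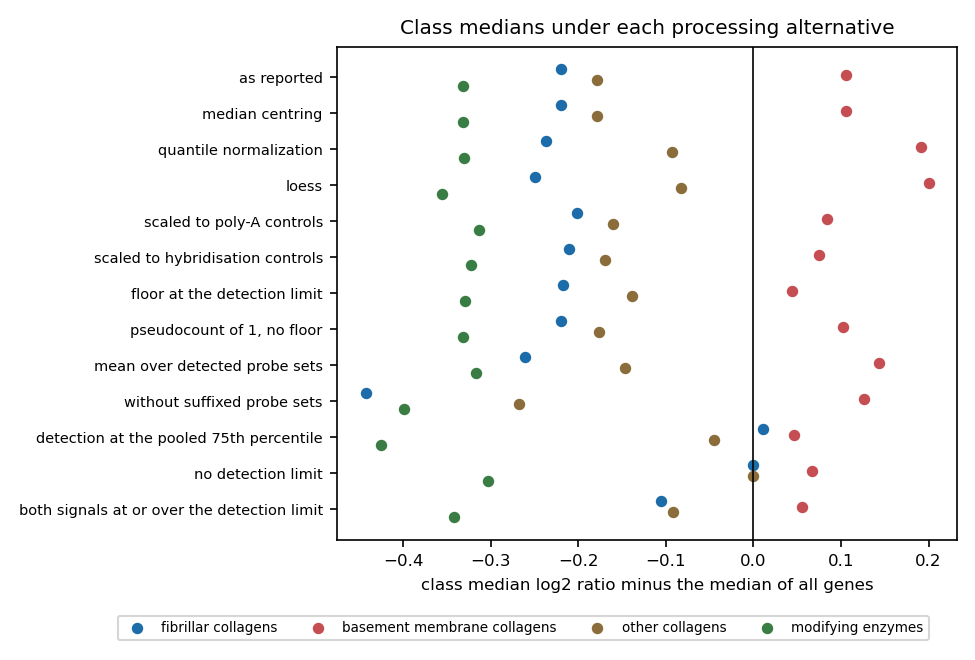
Median log2 ratio of each class minus the median of all genes, as reported and under 12 processing alternatives; each point is 1 class under 1 alternative. The enzyme points lie at -0.30 or further left in each row and the basement membrane points right of 0, while the fibrillar points reach 0.01 when only brighter genes are kept.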

How the data were processed

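Total RNA (1 ug) was made into biotin-labelled cRNA and hybridised to Affymetrix mouse arrays of 45101 probe sets, 1 array per siRNA. The deposited signal intensity, linear and above 0, was made by the authors using MAS5 per the submitters' processing notes, with its version not given in the sources used here. From the values, the mean of each array after trimming 2% at either end is 500.003, so a change in total messenger RNA cannot be seen. The values give no counts or detection calls.

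The probe annotation gave a single gene for 34945 probe sets, several for 932 and none for 9160, beside 64 controls. Signals were raised to a floor of 12.9 (the 25th percentile of the pooled signals) before log2. Where a signal lay under it, signals are given without a ratio. The detected probe set of highest mean log2 signal represented a gene, avoiding those ending in _x_at. The local spread is the gap from the 16th to the 84th percentile of neighbouring log2 ratios, divided by 2. All detected members are named, as are the 6 brighter genes of the collagen biosynthesis list with the largest absolute log2 ratio. The members and lists were chosen with earlier results of these data known. The procedure was tested on simulated data with assumed noise and with known changes placed only in brighter genes. That test does not cover changes in dimmer genes or variation between cultures. Alternatives concerned scaling, floor, probe set choice, detection and fold. Work was done with matplotlib 3.10.9, statsmodels 0.14.6, scipy 1.17.1, pandas 2.3.3, numpy 2.4.6 and Python 3.11.15.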

Additional observations from a re-analysis of the deposited data

How the results depend on the processing

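Scaling to the poly-A controls moved all genes together. The median was then -0.92 for all members, -0.92 for fibrillar, -0.63 for basement membrane and -0.87 for other collagens, and -1.03 for the enzymes. Under that scaling 25 of 36 members were at least 1.5-fold lower and 1 higher. The median of all genes was then -0.71, itself beyond 1.5-fold lower, so most detected genes were lower as well. The share of all genes was not counted, and these counts do not set the members apart. P4ha3 was at -0.047, the only called member whose sign turned. Scaling to the hybridisation controls gave 15 lower and 3 higher of 36 members, with the median of all genes at -0.21. The share of all genes was not counted there either. At a cutoff of 2-fold 3 were lower and 3 higher, and with detection at the 75th percentile, where 26 members were left, 3 were higher. Under the other alternatives (median centring, quantile, loess, other floors, averaged or unsuffixed probe sets, no detection limit, agreement of all probe sets, type IV chains only, and, chosen after seeing the data, both signals at or over the detection limit) these counts stayed within 1.5 times and the medians moved by less than the scatter of their members. Col3a1, at -0.19, was at -0.53 with averaged and -0.88 with unsuffixed probe sets. No paired analysis was possible because each group has 1 array, and leaving out an array leaves no comparison. Low signals limit 11 dimmer members most.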
